A study of Homo sapiens with 4 samples.

Results

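The genes described here encode the subunits of oxidative phosphorylation that are read from nuclear DNA. They were taken from the deposited table by symbol: names beginning NDUFA, NDUFB, NDUFC, NDUFS or NDUFV with a number, SDHA to SDHD, and names beginning UQCR, COX4 to COX8 or ATP5, provided that the gene averaged 1 FPKM or more. FPKM, the unit of the table, is a fragment count divided by transcript length and by library size, so levels are stated per length. How well levels compare between short and long transcripts was not tested. In all, 90 of the 23143 symbols had such a name. The processed pseudogene ATP5EP2 was left out by its name. Another 8 symbols averaged under 1 FPKM, namely ATP5J2-PTCD1, ATP5L2, COX4I2, COX6A2, COX7A1, COX7B2, COX8C and NDUFA4L2. That left 81 genes, and all 81 entered the test across 12504 genes. Around the threshold, UQCRHL (mean 1.598 FPKM) and COX6B2 (1.65) lay just inside, while NDUFA4L2 (0.859) and ATP5J2-PTCD1 (0.352) lay just outside.

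The 81 genes comprised 36 of complex I, 4 of complex II, 9 of complex III, 13 of complex IV and 15 of complex V, the ATP synthase. NDUFA4, first described in complex I, was placed with complex IV, where its protein is now assigned. The remaining 4 symbols carry a matching name without encoding a subunit of these complexes. COX4NB is an older name of EMC8, a subunit of the membrane protein insertion complex of the endoplasmic reticulum. ATP5S is an older name of DMAC2L, and ATP5SL of DMAC2, an assembly protein of complex I. NDUFC2-KCTD14 is a readthrough transcript that shares its start with NDUFC2. Cytochrome c1 (CYC1) of complex III and the subunits encoded in mitochondrial DNA do not have names of the kind selected.

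The study used A549 cells, a human lung adenocarcinoma line, that carry an inducible GATA4 switched on by doxycycline. GATA4 is a transcription factor with zinc fingers, known from heart and endoderm. In the noDOX group (2 libraries) cells received vehicle and are labelled as having the usual GATA4 level. In the DOX group (2 libraries) the same line received doxycycline and is labelled as overexpressing GATA4. The sources used here do not give dose, time or clonality, and no doxycycline-treated cells without the transgene were analysed, so the drug and GATA4 cannot be told apart. GATA4 itself stood at 12.2 and 14.5 FPKM in noDOX libraries 1 and 2 and at 74.98 and 47.95 FPKM in DOX libraries 1 and 2, with no overlap. Of the epithelial markers, KRT8 stood at 2339 to 5245 FPKM and KRT18 at 1728 to 2917 FPKM, both highest in DOX 2. KRT7 stood at 1944 and 1476 FPKM in noDOX and 197.3 and 1360 FPKM in DOX. EPCAM stood at 8.27 and 13.7 FPKM in noDOX and 3.83 and 3.08 FPKM in DOX. CDH1 stood at 8.73 and 17.6 FPKM in noDOX and 25.8 and 10.6 FPKM in DOX. Alveolar type II markers summed to 0.345 to 1.17 FPKM over 4 genes. Blood markers summed to 1.11 to 3.71 FPKM, nearly all from LYZ, with CD3E listed at 0 in all 4 libraries. Fibroblast markers summed to 1.79 to 8.50 FPKM, nearly all from COL1A1, with DCN listed at 0 in all 4 libraries. Endothelial markers summed to at most 0.119 FPKM. Depth is unknown, because the table holds no counts. Nothing in the labels says that replicates came from separate cultures. The p-values below therefore weigh the difference of group means only against the spread of these libraries, which is moderated over all tested genes. That spread may be technical. A lower share of an RNA in the pool and less RNA per cell cannot be told apart in such libraries.

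Oxidative phosphorylation takes place in the inner mitochondrial membrane. Complexes I and II pass electrons from NADH and succinate to ubiquinone, complex III passes them to cytochrome c, and complex IV passes them to oxygen. Complexes I, III and IV pump protons, and complex V lets the protons back to make ATP. Most subunits are encoded in the nucleus and must be matched to partners made inside the mitochondrion. The transcription factors NRF1, GABP (also called NRF2, with the DNA-binding subunit GABPA) and YY1 are known to bind promoters of many of these genes, and A549 cells, like many carcinoma lines, respire as well as ferment glucose.

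Promoter sequence is shown for the most abundant gene of each complex, and these 5 show how differently members of the group begin. A relation between promoter sequence and the RNA levels was not tested. Sequences are the 150 bases before the start site in RefSeq's GRCh38.p14 table, 5′ to 3′ on the gene's strand. Capitals mark a match to the core motif of NRF1 (GCGCANGC, or GCNTGCGC on the other strand), of GABP (CCGGAAG or CTTCCGG) or of YY1 (AAGATGGC or GCCATCTT). The windows are chr5:1801257-1801406 (plus strand) for NDUFS6, chr5:218170-218319 (plus) for SDHA, chr1:46303548-46303697 (plus) for UQCRH, chr5:86617791-86617940 (plus) for COX7C and chr17:75046970-75047119 (minus) for ATP5H.
NDUFS6: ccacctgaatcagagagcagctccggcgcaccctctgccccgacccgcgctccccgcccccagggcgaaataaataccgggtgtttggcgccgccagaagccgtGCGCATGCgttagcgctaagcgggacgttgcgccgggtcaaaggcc
SDHA: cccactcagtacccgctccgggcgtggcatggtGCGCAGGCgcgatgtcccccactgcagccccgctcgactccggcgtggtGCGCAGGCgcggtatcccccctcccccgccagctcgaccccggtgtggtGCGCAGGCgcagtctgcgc
UQCRH: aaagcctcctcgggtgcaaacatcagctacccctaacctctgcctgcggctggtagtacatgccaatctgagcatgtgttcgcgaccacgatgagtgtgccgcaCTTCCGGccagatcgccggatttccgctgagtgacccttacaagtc
COX7C: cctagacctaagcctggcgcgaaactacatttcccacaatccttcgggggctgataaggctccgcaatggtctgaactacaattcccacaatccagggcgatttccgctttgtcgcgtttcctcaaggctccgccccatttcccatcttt
ATP5H: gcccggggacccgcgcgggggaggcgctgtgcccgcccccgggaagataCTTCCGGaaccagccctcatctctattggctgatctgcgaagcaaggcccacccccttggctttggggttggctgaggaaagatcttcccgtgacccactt

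The NDUFS6 window held an NRF1 core 46 bases before the start. SDHA held 3 NRF1 cores, at 117, 68 and 19 bases before the start. UQCRH and ATP5H each held a GABP core, at 46 and 101 bases. COX7C, the most abundant member, held none of the 3 motifs. Windows of 300 bases, from 250 before to 50 after the start, were available for 67 of the 81 genes. The NRF1 core was found in 26 of the 67 (38.8%), against 22.6% of the windows of all tested genes. The GABP core was found in 20 (29.9%), against 19.9%, and the YY1 core in 11 (16.4%), against 5.72%. At least 1 of the motifs was present in 41 of the 67, a larger share than the 40.8% of the 9577 windows available for tested genes. SDHB and ATP5J held all 3 motifs. These are matches of letters, with no measurement of binding. Genes without a window included ATP5B, ATP5D, ATP5G3, ATP5J2, ATP5S, COX6C, NDUFB5, NDUFB9, NDUFC2, NDUFS5, SDHC, UQCRB and UQCRHL.

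Subunit genes were listed at high levels, with a median of mean levels of 128.6 FPKM against 10.6 FPKM for all tested genes. Their median coding length was 411 bases against 1362 bases, and the part of length in these levels was not tested. Summed over the 81 genes, FPKM came to 34513 and 16236 in noDOX libraries 1 and 2 and to 16658 and 25498 in DOX libraries 1 and 2. As a share of the FPKM outside small RNA genes these sums were 3.83%, 2.82%, 2.93% and 3.38%. The order of the libraries was thus noDOX 1, DOX 2, DOX 1 and noDOX 2, on both scales, and the noDOX pair enclosed the DOX pair. Small RNA genes held 34.9% of all FPKM in noDOX 1, 41.85% in noDOX 2, 41.76% in DOX 1 and 39.0% in DOX 2, so they were lowest in the library where the subunit genes were highest. The part of this share in the subunit levels was not tested.

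**Figure D1:**
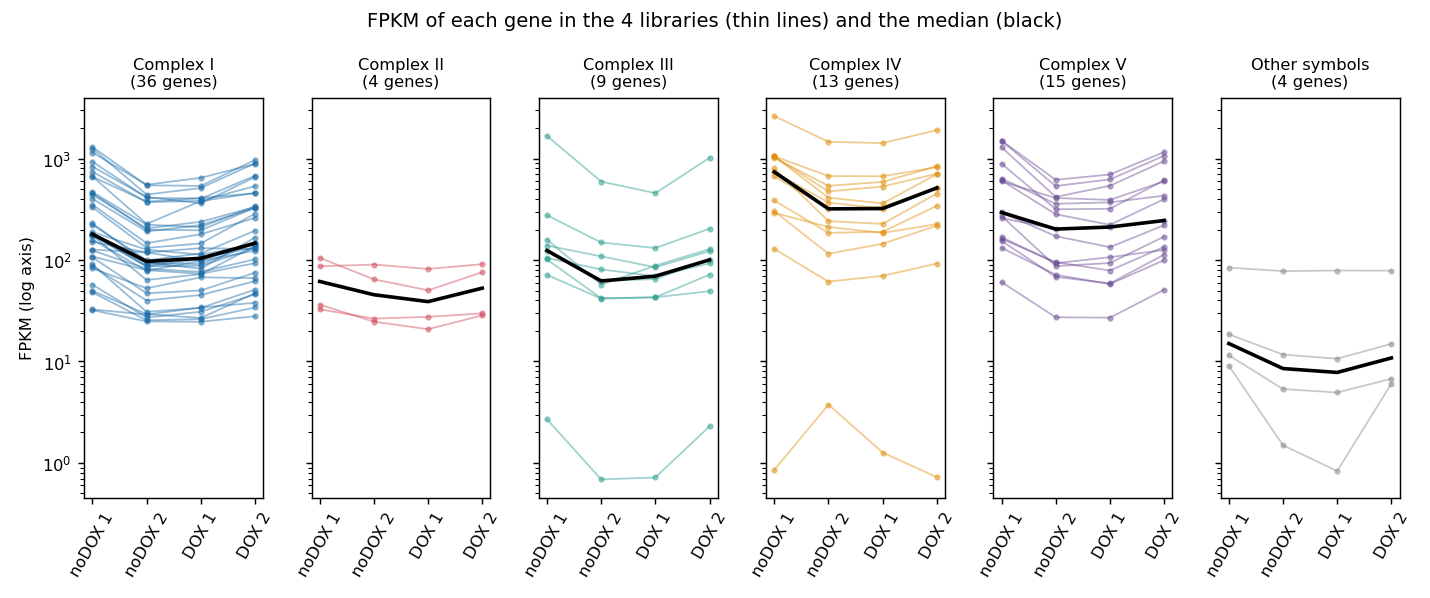
FPKM (log axis) of each of the 81 genes in noDOX libraries 1 and 2 and DOX libraries 1 and 2, with 1 thin line per gene and the median of each complex in black. Most lines form a shallow bowl, high in noDOX 1, low in noDOX 2 and DOX 1 and higher again in DOX 2, and complex II is flatter than the others.

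Complex I takes electrons from NADH through a core of redox proteins. The dehydrogenase tip is built from NDUFV1, NDUFV2 and NDUFS1. NDUFV1, which carries the flavin, was nearly level, at 126.7 and 118.8 FPKM in noDOX 1 and 2 and 131.0 and 128.4 FPKM in DOX 1 and 2. NDUFS1, the largest iron-sulfur subunit, stood at 32.6 and 29.02 FPKM in noDOX and at 34.1 and 37.9 FPKM in DOX. For these genes each DOX library was above each noDOX library. NDUFV2 did not share that order, at 151.5 and 118.8 FPKM in noDOX against 97.99 and 123.6 FPKM in DOX, where the groups overlapped.

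The arm that hands electrons to ubiquinone includes NDUFS3, NDUFS7 and NDUFS8. NDUFS3 stood at 176.9 and 86.8 FPKM in noDOX and 87.8 and 130.8 FPKM in DOX. NDUFS7 stood at 108.4 and 79.4 FPKM in noDOX and 73.3 and 93.1 FPKM in DOX. Both were highest in noDOX 1, next highest in DOX 2, and overlapped between groups. NDUFS8, which binds further iron-sulfur clusters, followed the same order at 188.7 and 126.5 FPKM in noDOX and 113.0 and 141.1 FPKM in DOX. Over the 7 core genes, noDOX 1 exceeded noDOX 2 by 1.07-fold (NDUFV1) to 2.04-fold (NDUFS3).

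The 29 accessory subunits of complex I have no redox centre and surround the core. They ranged in mean level from 27.4 FPKM for NDUFA10 to 840 FPKM for NDUFS6. NDUFS6, a small zinc-binding subunit, stood at 1304 and 546 FPKM in noDOX and 972 FPKM in DOX 2 but 538 FPKM in DOX 1. NDUFB4, a membrane arm subunit, had the widest noDOX pair of complex I (668 and 227 FPKM, 2.94-fold) and stood at 381 and 458 FPKM in DOX. NDUFA8 stood at 159 and 78.3 FPKM in noDOX and at 98.02 and 148 FPKM in DOX. Every one of the 29 was highest in noDOX 1. The lowest library was noDOX 2 for 20 of them and DOX 1 for 9. Within noDOX the median difference of the accessory genes was 1.07 on the log2(FPKM + 1) scale, against 0.44 for the core genes.

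Complex II links the citric acid cycle to the respiratory chain and is encoded entirely in the nucleus. SDHA, the flavoprotein that oxidises succinate, stood at 86.7 and 90.4 FPKM in noDOX and 81.6 and 91.1 FPKM in DOX, and was 1 of only 4 members not highest in noDOX 1. SDHB, the iron-sulfur subunit, stood at 105.3 and 64.6 FPKM in noDOX and 50.3 and 75.9 FPKM in DOX. SDHC, a membrane anchor, stood at 32.8 and 26.5 FPKM in noDOX and 27.5 and 29.8 FPKM in DOX. SDHD, its partner in the anchor, stood at 36.4 and 24.7 FPKM in noDOX and 20.8 and 28.5 FPKM in DOX. In each of the 4 the DOX and noDOX ranges overlapped, and the noDOX ratio ran only from 0.96 (SDHA) to 1.63 (SDHB).

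Complex III held both a highly abundant member and the least abundant of all 81. UQCRH, the acidic hinge protein at the cytochrome c1 contact, stood at 1676 and 595 FPKM in noDOX and 456 and 1020 FPKM in DOX, with group means of 1135 ± 764 and 738 ± 398 (SD, n = 2 each). UQCRHL, a near copy of UQCRH, was listed at 2.69 and 0.688 FPKM in noDOX and 0.718 and 2.29 FPKM in DOX. Like UQCRH it was high in noDOX 1 and DOX 2, and reads of the pair could have been divided between them, so they are uncertain. UQCRQ, a small subunit beside cytochrome b, stood at 159.0 and 57.2 FPKM in noDOX and 88.1 and 128.3 FPKM in DOX. All 9 genes were highest in noDOX 1. UQCRC1 and UQCRFS1 were added for their roles after the values were seen. UQCRC1, a core protein, stood at 139.0 and 109 FPKM in noDOX and 84.9 and 122.4 FPKM in DOX. UQCRFS1, the Rieske iron-sulfur protein, stood at 276.5 and 149.0 FPKM in noDOX and 131.5 and 203.7 FPKM in DOX.

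Complex IV, cytochrome c oxidase, has nuclear subunits that exist as tissue isoforms. The ubiquitous forms were the abundant ones, and of the tissue forms described here only COX6B2 (mean 1.65 FPKM) passed the threshold. COX4I1 stood at 740 and 369 FPKM in noDOX and 322 and 516 FPKM in DOX, while its lung and hypoxia-related isoform COX4I2 was at most 0.0478 FPKM in any library. COX6A1 stood at 1056 and 674 FPKM in noDOX and 669.8 and 824 FPKM in DOX, and the muscle form COX6A2 was listed at 0 in every library. COX7A2, the liver-type form, stood at 670.5 and 320 FPKM in noDOX and 334 and 514 FPKM in DOX, with the muscle form COX7A1 at 0.258 FPKM or less. COX8A stood at 1020 and 539 FPKM in noDOX and 589 and 842 FPKM in DOX, and the testis form COX8C reached at most 0.223 FPKM. The testis form COX7B2 was listed at 0 throughout, while COX7B stood at 800.2 and 242 FPKM in noDOX and 227 and 453 FPKM in DOX. That 3.31-fold gap within noDOX was the widest of complex IV among the genes higher in noDOX 1.

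COX7C, a small membrane subunit, was the most abundant of the 81 genes at 2626 and 1464 FPKM in noDOX and 1424 and 1909 FPKM in DOX. COX7A2L, a factor that joins complexes III and IV into supercomplexes, was among the steadier members at 292 and 212 FPKM in noDOX and 185 and 226 FPKM in DOX. The COX6B isoforms went opposite ways between the noDOX libraries. COX6B1, the general form, stood at 1050 and 475 FPKM in noDOX and 531 and 709 FPKM in DOX. COX6B2, the testis form, stood at 0.851 and 3.76 FPKM in noDOX and 1.27 and 0.724 FPKM in DOX. It was the only member of the 81 highest in noDOX 2, and it lies near the lower limit of the values tested. NDUFA4L2, related to NDUFA4 and known to respond to hypoxia, was under the limit at 1.07 and 0.373 FPKM in noDOX and 0.658 and 1.33 FPKM in DOX.

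The ATP synthase combines a soluble catalytic head with a proton-driven rotor in the membrane. Its catalytic head was chosen for description after the values were seen. ATP5A1, the alpha subunit, stood at 259.8 and 202.0 FPKM in noDOX and 211.6 and 245.4 FPKM in DOX. ATP5B, the catalytic beta subunit, stood at 597 and 409 FPKM in noDOX and 392 and 597 FPKM in DOX. In both, the DOX pair lay within or almost within the noDOX pair. The rotor ring is made of subunit c, for which 3 genes encode the same mature protein with different import sequences. ATP5G1 stood at 611 and 283 FPKM in noDOX and 222 and 399 FPKM in DOX. ATP5G2 stood at 637 and 358 FPKM in noDOX and 370.5 and 431 FPKM in DOX. ATP5G3, the lowest of the ring genes, stood at 132 and 71.6 FPKM in noDOX and 57.9 and 99.9 FPKM in DOX. ATP5H, subunit d of the stalk, was the most abundant gene of the complex at 1504 and 618 FPKM in noDOX and 697.5 and 1160 FPKM in DOX. All 15 genes were highest in noDOX 1 and higher in DOX 2 than in DOX 1.

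Of the 4 symbols outside the complexes, NDUFC2-KCTD14 varied most, at 9.11 and 1.49 FPKM in noDOX and 0.832 and 6.06 FPKM in DOX. Its ratio of noDOX 1 to noDOX 2, 6.11, was the highest of all 81, and the ratio of DOX 2 to DOX 1 was 7.29. Reads of this transcript overlap those of NDUFC2 itself, which differed by 2.07-fold within noDOX, so its level is uncertain. ATP5SL moved least, between 77.8 and 84.3 FPKM. In the GENCODE 29 annotation 47 of the 81 genes share exon bases with another gene and 44 have a named pseudogene, most of all COX6C with 17. The sources used here do not give the strand setting or the treatment of reads with several matches, so such values may include fragments of the other locus.

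The 4 libraries therefore gave most members a common profile. Of the 81 genes 77 (95.1%) were highest in noDOX 1, against 35.1% of all tested genes. The exceptions were NDUFS1 and SDHA (highest in DOX 2), NDUFV1 (highest in DOX 1) and COX6B2 (highest in noDOX 2). The lowest library was noDOX 2 for 44 genes, DOX 1 for 36 and DOX 2 for 1. Libraries of the same group differed more than the groups did. The median difference between noDOX 1 and noDOX 2 was 1.02 in log2(FPKM + 1), and 79 of 81 genes were higher in noDOX 1. Between DOX 2 and DOX 1 the median difference was 0.57, with 77 genes higher in DOX 2. Over all tested genes these medians were 0.02 and 0.02. The size of the members' noDOX gap depended on scaling. Their median log2 level in noDOX 1 and 2 was 7.51 and 6.65 as deposited. It was 7.12 and 6.905 with libraries brought to the same sum outside small RNA genes, and 7.24 and 6.83 after quantile normalization. Total FPKM as deposited was 1381822 in noDOX 1 and 989493 in noDOX 2. For 80 of the 81 genes (98.8%) the difference between group means was smaller than the gap between the noDOX libraries, against 67.2% of all tested genes. The exception was NDUFS1.

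**Figure D2:**
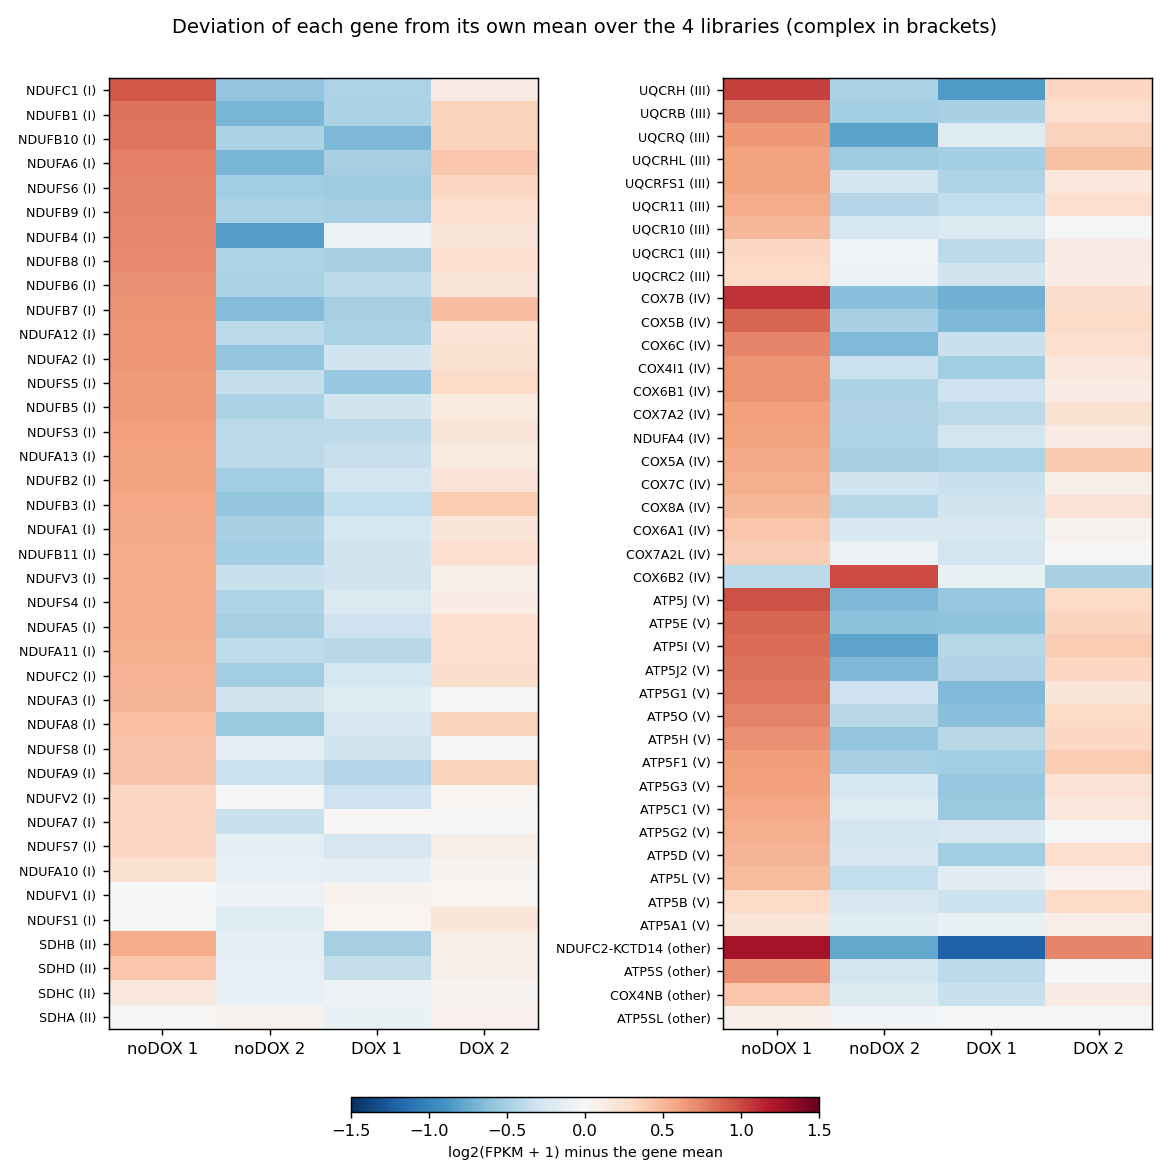
Deviation of log2(FPKM + 1) from the gene's own mean over the 4 libraries, for 80 of the 81 genes (rows, complex in brackets) and the 4 libraries (columns). The noDOX 1 column is red for nearly every gene and the noDOX 2 and DOX 1 columns are mostly blue; NDUFV1, NDUFS1 and SDHA are pale and COX6B2 is red in noDOX 2.

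The comparison the design implies is DOX against noDOX, which asks how the mRNA profile of these cells differs when GATA4 is induced. No subunit gene passed the test. Called genes were 0 of 81 members at an adjusted p below 0.05 (limma on log2(FPKM + 1), 2 libraries per group), where 11 of the 12504 genes, 0.088%, were called in all. Of the 12112 tested genes outside small RNA, 1 was called higher and 0 lower in the same fit. At an unadjusted p under 0.05 the count of members was also 0, where 793 of all tested genes (6.34%) were under it. The smallest unadjusted limma p of a member was 0.311, for COX6B2, and adjusted p ran from 0.9991 to 0.9998. The group means were lower in DOX for 74 of the 81 genes and higher for 7. The median log2 difference was -0.19 (quartiles -0.28 and -0.07), beside -0.04 over all tested genes.

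The direction of that median changed with the libraries used. Leaving out noDOX 1 turned the members' median to 0.30, with 72 genes higher in DOX and 9 lower. Leaving out DOX 1 turned it to 0.08, with 61 higher and 20 lower. Without noDOX 2 it was -0.67 and without DOX 2 it was -0.45, with 78 genes lower in either case. No member passed the test in any of these fits. Scaling also moved the split between higher and lower genes, from 7 and 74 as deposited to 33 and 48 when libraries were brought to the same sum outside small RNA genes, and to 28 and 53 after quantile normalization. The sum scaling shifted the median of all tested genes from -0.04 to 0.07, beside which the members' median was -0.06. Under none of the scalings did a member pass the test.

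By complex, the median log2 difference was -0.15 for complex I, -0.16 for complex II, -0.23 for complex III, -0.20 for complex IV and -0.26 for complex V. All 13 genes of complex IV and all 15 of complex V had lower means in DOX as deposited, but 10 and 9 of them did with sums equalised, 10 and 10 after quantile normalization and 13 and 14 with medians equalised. COX6B2 had the lowest difference, -0.59 ± 0.51 (limma SE), followed by UQCRH at -0.55 ± 0.73, NDUFC2-KCTD14 at -0.48 ± 0.95, ATP5G1 at -0.48 ± 0.56 and COX7B at -0.46 ± 0.74. The highest differences were those of NDUFS1 at 0.22 ± 0.22, UQCRQ at 0.15 ± 0.57, NDUFA8 at 0.11 ± 0.47, NDUFB4 at 0.10 ± 0.62 and NDUFV1 at 0.08 ± 0.26. Of these 10, all but COX6B2 and NDUFS1 lay within 1 standard error of 0. Each DOX library was above each noDOX library for 2 of the 81 genes, NDUFS1 and NDUFV1, where 14.7% of all tested genes did so. Both lay below for 0 of the 81, where 17.3% of all tested genes did so. With 2 libraries against 2, the smallest two-sided p that an exact permutation test of a single gene can give is 0.333.

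**Figure D3:**
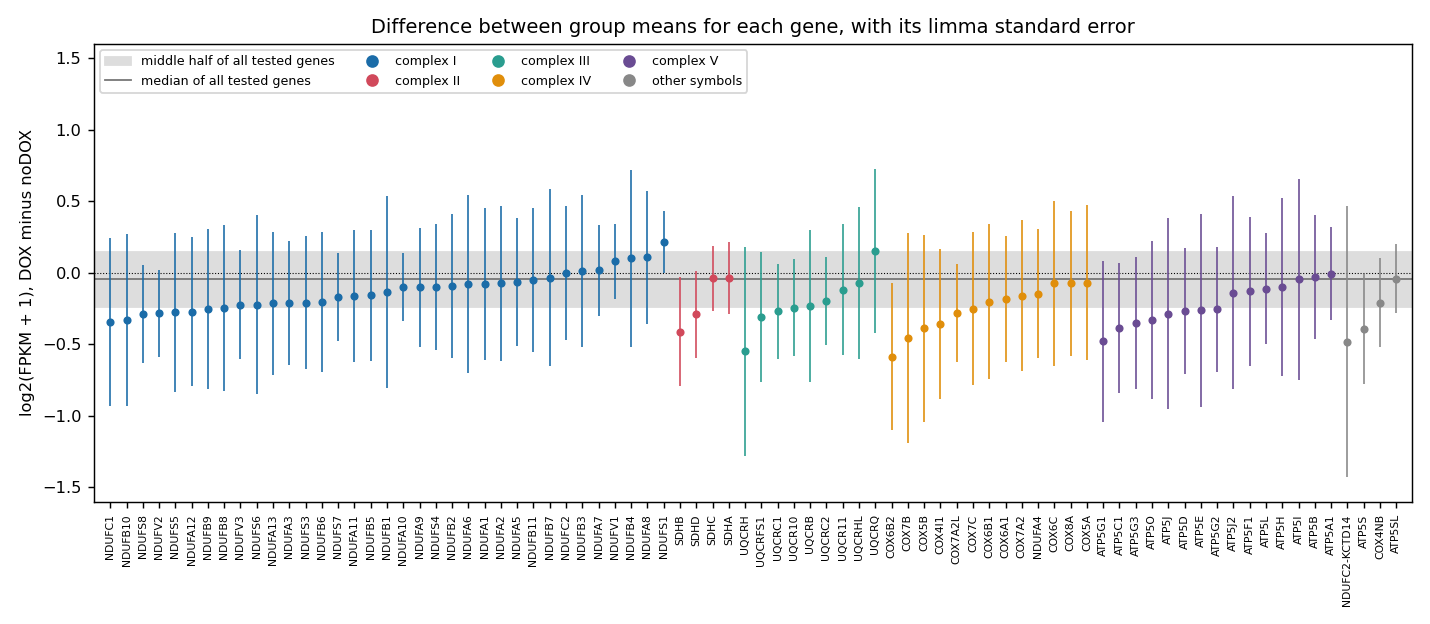
Difference between group means in log2(FPKM + 1), DOX minus noDOX, for 80 of the 81 genes in order within the complex; bars are the limma standard error (2 libraries per group). The grey band spans the quartiles of all tested genes and the grey line their median (-0.04); most points lie below the line and bars of most genes cross 0.

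Members were short genes, with a median coding length of 411 bases against 1362 bases over all tested genes with a length. Shorter genes tended to have the higher values of noDOX 1 minus noDOX 2 and of DOX 2 minus DOX 1. This was seen in the whole table and among the members, though weakly among the members for the DOX pair. Across genes, which are not independent replicates and share the libraries, the noDOX 1 minus noDOX 2 difference had a Spearman rho of -0.52 with coding length for the 81 members and -0.47 for 11482 genes. For DOX 2 minus DOX 1 the values were -0.18 and -0.41, and for the difference of group means 0.03 and 0.21. Within each range of lengths the members had the wider median gap between the noDOX libraries. For coding lengths up to 300 bases the median gap was 1.15 for 20 members and 0.76 for 248 genes outside small RNA. From 300 to 600 bases it was 1.06 for 39 members and 0.53 for 1307 genes. From 600 to 900 bases it was 0.74 for 12 members and 0.28 for 1631 genes. Lengths of 900 to 1500 bases gave 0.37 for 6 members and 0.07 for 3232 genes, and those of 1500 to 3000 bases gave 0.26 for 4 members and -0.11 for 3535 genes. Above 3000 bases, beyond the longest member, 1529 genes gave -0.32, and -0.27 for DOX 2 minus DOX 1. The sign in the whole table thus turned with length. With the length trend of each library removed, the members' median log2 level was 7.30 and 6.84 in noDOX 1 and 2 and 6.98 and 7.09 in DOX 1 and 2, against 7.51, 6.65, 6.74 and 7.22 as deposited. The order noDOX 1, DOX 2, DOX 1, noDOX 2 held on both scales, and the gap between the noDOX libraries was smaller with the trend removed.

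**Figure D4:**
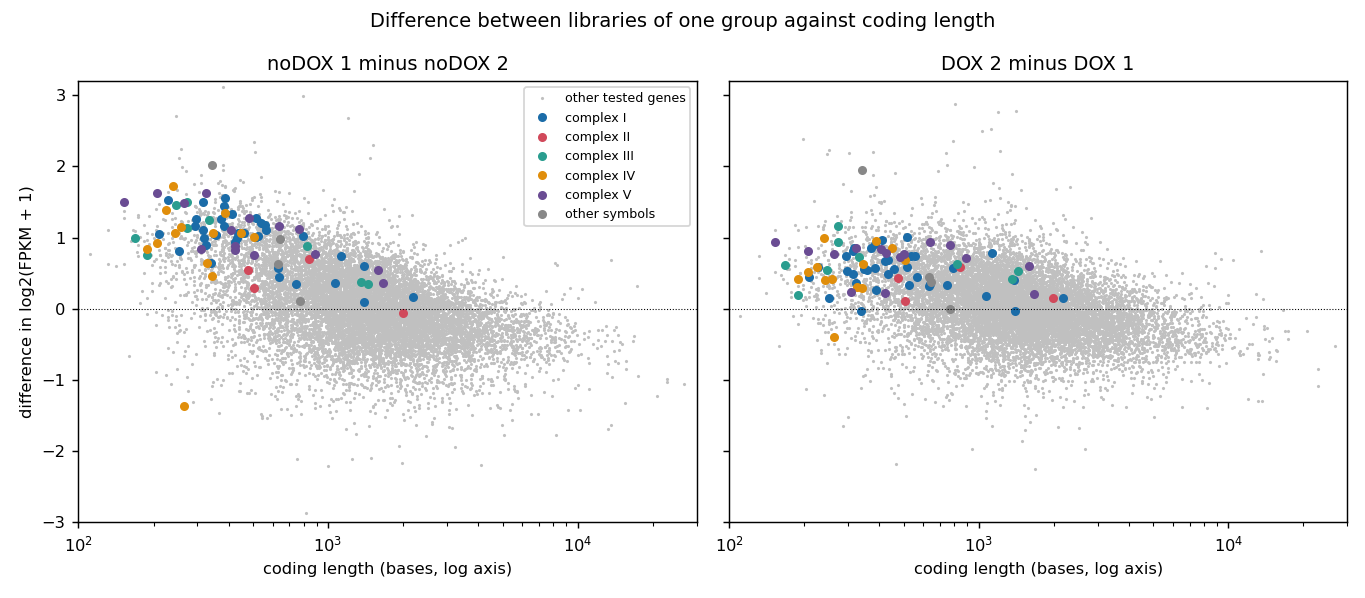
Difference in log2(FPKM + 1) between the libraries of a group (left, noDOX 1 minus noDOX 2; right, DOX 2 minus DOX 1) against coding length in bases on a log axis; coloured points are the members by complex and grey points other tested genes. Short genes lie higher in both panels, and the members lie mostly at the short end and above 0, with COX6B2 farthest below 0 in both.

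Genes that build or regulate the complexes were read from lists, and 0 genes of any list passed the test (limma, adjusted p below 0.05). Of 13 complex I assembly factors 2 had higher and 11 lower means in DOX, with a median log2 difference of -0.19, and 4 and 9 with sums equalised. The 6 complex III assembly factors were all lower (median -0.21), as were 4 of 4 complex II assembly factors (-0.18), and with sums equalised 5 of 6 and 3 of 4 were lower. SDHAF1, which helps insert the iron-sulfur clusters of SDHB, stood at 26.1 and 22.5 FPKM in noDOX and 18.2 and 18.5 FPKM in DOX, so that the groups did not overlap. Of 21 complex IV assembly factors 6 were higher and 15 lower (-0.08), a split that became 13 and 8 with sums equalised. LRPPRC, which stabilises mitochondrial mRNAs, was at 33.5 and 40.2 FPKM in noDOX and 30.97 and 28.9 FPKM in DOX, also without overlap. It was 1 of 3 such genes among the 21 (14.3%), beside 17.3% of all tested genes. The 4 genes for assembly and inhibition of the ATP synthase all had higher means in DOX (median 0.11), under each scaling tried as well, with overlapping libraries in each gene. Without DOX 2 the split became 2 higher and 2 lower, and without noDOX 2 it became 0 higher and 4 lower. The 5 electron carriers were all lower (-0.19), and 4 of 5 with medians or sums equalised. Without noDOX 1 the means in DOX were higher for 9 of 13 complex I assembly factors (median 0.19), 3 of 4 complex II factors (0.05), 15 of 21 complex IV factors (0.19) and 4 of 5 electron carriers (0.10), and without DOX 1 for 9 (0.16), 2 (-0.07), 12 (0.14) and 4 (0.12). The complex III factors kept a median below 0 in both cases (-0.04 and -0.09). CYC1 stood at 450.4 and 312 FPKM in noDOX and 266 and 407 FPKM in DOX. Like all 9 complex III members it was highest in noDOX 1 and higher in DOX 2 than in DOX 1. Its lowest library was DOX 1, as for 4 of the 9, while 5 were lowest in noDOX 2.

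Of the 13 tested regulators of respiratory genes 4 were higher and 9 lower, with a median of -0.17, and 6 were higher and 7 lower with sums equalised. Without noDOX 1 or without DOX 1 it was 7 higher and 6 lower. MYC, which among many targets activates mitochondrial genes, stood at 44.1 and 49.6 FPKM in noDOX and 20.9 and 33.0 FPKM in DOX. Both DOX values lay below both noDOX values, and its log2 difference was -0.81 ± 0.30 with an unadjusted limma p of 0.0483 and an adjusted p of 0.778. POLRMT, the mitochondrial RNA polymerase, stood at 22.7 and 34.2 FPKM in noDOX and 18.0 and 20.1 FPKM in DOX, also without overlap. Among the 13 regulators, both DOX libraries were below both noDOX libraries for 3 (23.1%) and above for 0. The shares of all tested genes were 17.3% and 14.7%. Of 18 enzymes of the citric acid cycle and pyruvate dehydrogenase 6 were higher and 12 lower (median -0.11), and 11 were higher and 7 lower with sums equalised. Without noDOX 1 or without DOX 1, 13 were higher and 5 lower. OGDH, a subunit of oxoglutarate dehydrogenase, stood at 16.6 and 25.1 FPKM in noDOX and 40.2 and 25.2 FPKM in DOX. IDH3A, which makes oxoglutarate, stood at 30.7 and 28.2 FPKM in noDOX and 37.4 and 42.6 FPKM in DOX. PDHX, the anchor of the dihydrolipoyl dehydrogenase subunit in pyruvate dehydrogenase, stood at 24.8 and 24.0 FPKM in noDOX and 15.6 and 19.5 FPKM in DOX. The groups of OGDH, IDH3A and PDHX did not overlap, and their adjusted limma p ran from 0.902 to 0.971. For OGDH the margin was slight, with 25.17 FPKM in DOX 2 against 25.12 FPKM in noDOX 2. Each DOX library was above each noDOX library for 4 of the 18 (22.2%) and below for 1 (5.56%), beside 14.7% and 17.3% of all tested genes.

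Genes of the ribosomes, which make proteins in the cytosol and inside the mitochondrion, were likewise high in noDOX 1 and DOX 2, but their lowest library was DOX 1 for 50 of 76 mitochondrial and 75 of 81 cytosolic genes. Among 76 mitochondrial ribosomal protein genes, 71 were highest in noDOX 1, and the median differences were 0.87 between noDOX 1 and 2 and 0.67 between DOX 2 and 1. Among 81 cytosolic ribosomal protein genes all 81 were highest in noDOX 1, with medians of 1.06 and 0.72. The median log2 difference between groups was -0.17 for the mitochondrial and -0.39 for the cytosolic ribosomal proteins. Lower means in DOX were found for 67 of 76 and 80 of 81 genes, or 51 and 79 with sums equalised. Without noDOX 1 the direction turned, with 65 of 76 (median 0.20) and 65 of 81 (median 0.13) higher in DOX. Without DOX 1 it turned for the mitochondrial list, with 59 higher and 17 lower (median 0.12). The cytosolic list then kept more genes lower, with 30 higher and 51 lower (median -0.02). Of either list 0 passed the test (smallest adjusted limma p 0.973 and 0.924).

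**Figure D5:**
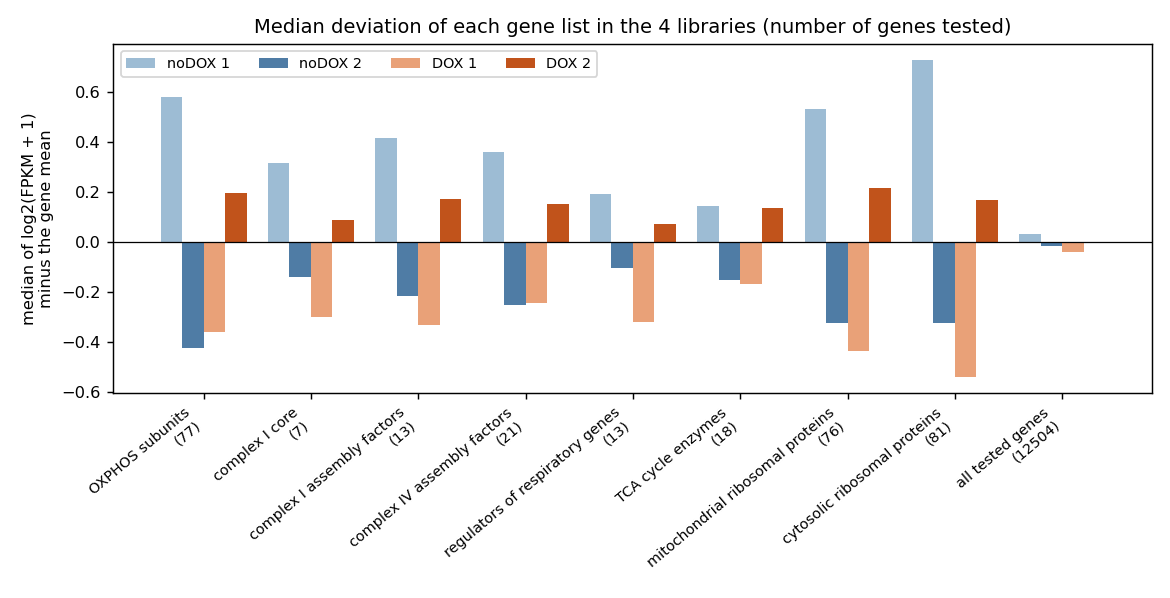
Median over each list of the deviation of log2(FPKM + 1) from the gene's own mean, for the 4 libraries, with the number of tested genes in brackets; no error is drawn. The OXPHOS subunits rise to 0.58 in noDOX 1 and fall to -0.42 in noDOX 2, the ribosomal protein lists have the same order of noDOX 1 and DOX 2 above the other libraries, and all tested genes stay near 0.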

How the data were processed

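Polyadenylated RNA of 4 A549 libraries was sequenced. Per the submitters' processing notes, the tools were TopHat2 2.0.10, Bowtie, Cufflinks 2.2.1 and Cuffdiff, with the hg19 build. The authors deposited FPKM for 23143 symbols, 1 column per library; the sources used here do not give annotation, strand setting or library scaling. The members and lists were chosen with earlier results of these data known.

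Values were used as deposited. Genes averaging at least 1 FPKM (12504) were tested on log2(FPKM + 1) with limma 3.58.1 in R 4.3.3: 2 group means, trended moderation, 2 residual degrees of freedom and two-sided p, adjusted by Benjamini-Hochberg and called below 0.05. The fit was also run on simulated data in which genes varied independently, without the shifts that many genes share in these libraries. That run does not show how the test behaves under such shared shifts. A fold on this scale understates the change of low genes. Genes given library by library were the complex I core, SDH genes, the 5 highest and 5 lowest differences, the 3 highest and 3 lowest levels, the top gene of each complex, isoform families, and up to 3 genes of smallest p per list; exceptions are stated, and 1 member, kept in all counts and fits, is not reported here by name. Coding length is the median over principal transcripts in GENCODE 29 (GRCh38). All 81 members were matched through RefSeq synonyms, 19 of them under a newer symbol. Promoter windows came from RefSeq. Other scalings, filters, pseudocounts, blocks and omitted libraries were also run.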

Additional observations from a re-analysis of the deposited data

How the results depend on the processing

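Called members were 0 under every alternative run, in either direction. Over all tested genes 3 were called higher and 8 lower. Higher calls were 5 with a pseudocount of 0.1, 0 with no filter on low values, 1 with sums equalised, 6 with robust moderation and 1 with small RNA genes left out, and 4 to 31 with a library left out. Lower calls were 1 with no filter, 2 with sums equalised, 0 with small RNA genes left out, 0 with the length trend removed, and 19 to 59 with a library left out. The replicate numbers are not stated to pair the libraries, and same-numbered deviations correlated at -0.35 over all tested genes and -0.76 over the members. A replicate block gave 30 higher and 35 lower calls, 0 of them members, and left the members' median at -0.19. The crossed pairing, added after seeing the data like the removal of the length trend, gave 2 higher and 5 lower, 0 of them members. Leaving out a library moved the members' median log2 difference between -0.67 and 0.30; the lone library of a group is then assumed to vary like the others. Leaving out a library moved complex V's median log2 difference between -0.77 and 0.25. The medians of complexes I, III, IV and V, but not of complex II, were above 0 without noDOX 1 and without DOX 1. Members whose libraries did not overlap numbered 0 higher (11.9% of all tested genes) and 8 lower (9.72% of all tested genes) with sums equalised, 2 higher (19.9% of all tested genes) and 7 lower (14.7% of all tested genes) after quantile normalization, and 5 higher (17.4% of all tested genes) and 4 lower (16.8% of all tested genes) with the length trend removed. With a library left out, where such a split is more frequent in the whole table, they numbered 44 higher (of all tested genes 30.9%) and 1 lower (32.8%) without noDOX 1, 2 higher (of all tested genes 33.6%) and 77 lower (45%) without noDOX 2, 3 higher (of all tested genes 23.6%) and 1 lower (28.1%) without DOX 1, 2 higher (of all tested genes 30.6%) and 36 lower (38.2%) without DOX 2. With sums equalised the log2 difference changed sign for ATP5H (0.035), SDHA (0.096), SDHC (0.092) and UQCRHL (0.026). After quantile normalization the log2 difference changed sign for ATP5H (0.051), SDHA (0.042), SDHC (0.021) and UQCRHL (0.13). With the length trend removed the log2 difference changed sign for ATP5H (0.029), SDHC (0.084) and UQCRHL (0.12). Leaving out a library changed the sign for ATP5G1 (-1.03 to 0.075), ATP5H (-0.74 to 0.54), COX6B2 (-1.27 to 0.094), COX7B (-1.32 to 0.41), COX7C (-0.67 to 0.17), NDUFA8 (-0.40 to 0.61), NDUFB4 (-0.67 to 0.88) and NDUFC2-KCTD14 (-1.49 to 0.53), and for NDUFS3 (-0.72 to 0.30), NDUFS6 (-0.85 to 0.41), NDUFS7 (-0.39 to 0.056), SDHA (-0.12 to 0.041), SDHC (-0.19 to 0.11), UQCRH (-1.29 to 0.20), UQCRHL (-0.64 to 0.50) and UQCRQ (-0.58 to 0.88); the cause was not tested. Depth is unknown, so counting error cannot be given.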
